A study of Mus musculus with 12 samples.

Results

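Genes for chromatin modifiers and remodellers were examined for peaks of MOF and GATA1 in mouse blood stem cells and progenitors. The set was defined by gene symbol in the RefSeq annotation: the KMT, SETD, EZH, KAT and DNMT writers, the HDAC, sirtuin, KDM and TET erasers, the BRD and ING readers, and the SMARC, CHD and ARID genes with Rsf1. Jarid2 was also included and was counted with the writers, in the family of methyltransferase and SET-domain genes. Kat8, which encodes MOF itself, was left out. The rule took 114 of 21887 protein-coding genes, and a gene counted when the middle of a peak, or its summit, lay inside it or within 5 kb of its start or end.

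MOF was precipitated from haematopoietic stem cells (HSC), and from megakaryocyte-erythroid progenitors (MEP), of C57BL/6 mice that were heterozygous for Mof (Mof -/+) or wild type. GATA1 was precipitated from wild-type HPC7 cells, a progenitor line kept in 10 ng/mL stem cell factor. HSC were the LSK CD34- Flt3- gate (15000 cells) and MEP the lineage-negative, Kit+ Sca-1- cells without CD34, CD16/32 or the IL-7 receptor (30000 cells). No source used here gives the age, sex or number of the animals. Each group was 1 library, so no difference below has a replicate check and no p-value is given. The lists held 338 MOF peaks for Mof -/+ HSC, 1876 for wild-type HSC, 64 for Mof -/+ MEP and 898 for wild-type MEP, with 477 intervals for GATA1. Sequencing depth is unknown and can set how long a list is. Peak lists do not measure expression, so the sorted cell types could not be checked against their markers.

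Writers place methyl or acetyl groups on histones or on DNA, erasers remove them, readers bind the marked histones, and remodellers use ATP to slide or evict nucleosomes. MOF is a writer that acetylates histone H4, and in mammals it works within the MSL and NSL complexes. The NSL complex is known for binding at the promoters of widely expressed genes. Many members studied here, among them the Polycomb enzyme Ezh2, the MLL-type methyltransferase genes and the BAF subunit genes, are known to be needed for normal blood formation.

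The sequences under 5 of the promoter summits are shown first, because they let the position of MOF be read on the DNA. Each is 121 bases of mm10 in the direction of the gene, with the wild-type summit at base 61. A stretch was shown only if it lay wholly within the 250 bases before an annotated start and overlapped no protein-coding gene. Summits downstream of a start could therefore not appear here. They come from the RefSeq promoter table (GRCm38.p6), which holds 91 of the 114 members. Capitals mark matches to the searched motifs on either strand: the GC box GGGCGG, the ETS motif CCGGAAG or the NRF1 motif GCGCATG. The first 4 come from wild-type HSC peaks and the last from wild-type MEP.
Arid1a (chr4:133756893-133757013, minus strand): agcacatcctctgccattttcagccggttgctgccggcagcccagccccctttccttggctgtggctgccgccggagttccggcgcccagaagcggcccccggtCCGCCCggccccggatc
Ing5 (chr1:93803777-93803897, plus strand): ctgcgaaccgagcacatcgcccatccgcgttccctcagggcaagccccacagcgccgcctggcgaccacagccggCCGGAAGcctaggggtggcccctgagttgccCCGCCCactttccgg
Setd1a (chr7:127777154-127777274, plus strand): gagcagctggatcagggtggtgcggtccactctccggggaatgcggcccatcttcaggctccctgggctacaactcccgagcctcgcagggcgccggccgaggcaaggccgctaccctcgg
Smarcd1 (chr15:99702147-99702267, plus strand): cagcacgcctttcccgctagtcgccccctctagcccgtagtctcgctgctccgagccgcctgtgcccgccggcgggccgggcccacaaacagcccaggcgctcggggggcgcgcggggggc
Smarca5 (chr8:80739573-80739693, minus strand): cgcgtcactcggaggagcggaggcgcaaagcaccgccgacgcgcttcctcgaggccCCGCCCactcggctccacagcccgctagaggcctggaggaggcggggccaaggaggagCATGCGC
All 5 are rich in G and C, at 70.2 to 77.7%. The summits lay 184, 128, 175, 80 and 174 bp upstream of the nearest annotated start of Arid1a, Ing5, Setd1a, Smarcd1 and Smarca5, in that order. That all are upstream follows from how the stretches were chosen. Setd1a and Smarcd1 held none of the searched motifs in these stretches.

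Chromatin genes carried MOF peaks at a higher share than protein-coding genes at large in both wild-type lists. In wild-type HSC 28 of 114 members had a peak (24.6%, 95% Wilson interval 17.6 to 33.2), against 9.42% of all protein-coding genes. In wild-type MEP 11 of 114 had one (9.65%, 5.47 to 16.5), against 4.01%. Both lists named 4 members, Ing5, Kdm3b, Jarid2 and Sirt4 (3.51%, 1.37 to 8.68, against 1.7%), with an interval that includes the background. They were 4 of the 28 members in HSC (14.3%, 5.70 to 31.5) and 4 of the 11 in MEP (36.4%, 15.2 to 64.6). Over all protein-coding genes with a peak, 372 of 2062 in HSC and 372 of 878 in MEP were in both lists. Those shares were higher than the members' shares but lie within these intervals. Intervals here and below cover counting error only. A peak between neighbouring genes counts for each of them, so genes are not independent units.

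**Figure D1:**
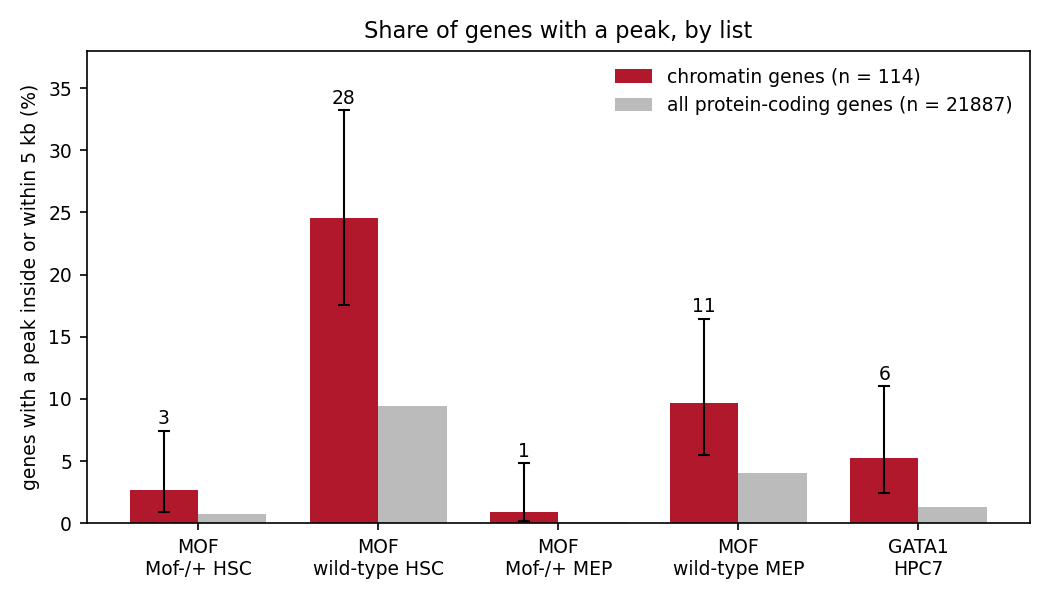
Share of the 114 chromatin genes (red, with 95% Wilson intervals and the number of genes above) and of all 21887 protein-coding genes (grey) with a peak inside the gene or within 5 kb, in each of the 5 lists. The red bar is above the grey one in every list, with 28 genes for wild-type HSC and 11 for wild-type MEP.

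Members are long genes, which gives a peak more room to fall within reach. The part of gene length in the shares above was not tested. The median length of members was 45.7 kb, against 17.2 kb over all protein-coding genes. Per length, the members and their flanks (9.37 Mb) held 3.31 peaks per Mb in wild-type HSC, against 1.35 over all protein-coding genes. In wild-type MEP they held 1.17 peaks per Mb, against 0.564. Members with a wild-type HSC peak had a median length of 42.8 kb, and those without one 46.1 kb. Over all protein-coding genes with a wild-type HSC peak the median was 20.5 kb. At listed gene starts, 13 members had a wild-type HSC summit within 1 kb (11.4%, 6.79 to 18.5), against 6.25% of all protein-coding genes. In wild-type MEP there were 7 (6.14%, 3.01 to 12.1), against 2.26%. For 23 members without a listed strand, either end of the gene was taken as a possible start. With the boundary of each gene on its start side added to the listed starts, a choice made after these values were seen, the counts were 15 in HSC, against 6.43% of all protein-coding genes, and 9 in MEP, against 2.32%.

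The larger number in HSC went with the longer list. Of all wild-type HSC peaks 31 were counted for members (1.65%, 1.17 to 2.34), and of all wild-type MEP peaks 11 (1.22%, 0.685 to 2.18). These intervals overlap. Of the 31 member peaks in wild-type HSC, 3 overlapped a wild-type MEP peak (9.68%, 3.35 to 24.9), against 278 of 1876 over the whole list (14.8%). When only the 898 highest-scoring wild-type HSC peaks were kept, as many as the MEP list holds, 12 members had a peak in HSC, against 11 in MEP. These were 10.5% and 9.65% of members, with backgrounds of 4.67% and 4.01% of all protein-coding genes. When each peak counted only for its nearest protein-coding gene, 18 members were left in wild-type HSC, against 10 in wild-type MEP. These were 15.8% and 8.77% of members, with backgrounds of 7.15% and 2.95%. Member peaks were of middling strength in both lists. The authors' −log10 value per peak, read here as a −log10 q, had a median of 4.70 at members and 5.27 over all wild-type HSC peaks, and of 5.22 at members and 5.61 over all wild-type MEP peaks.

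**Figure D2:**
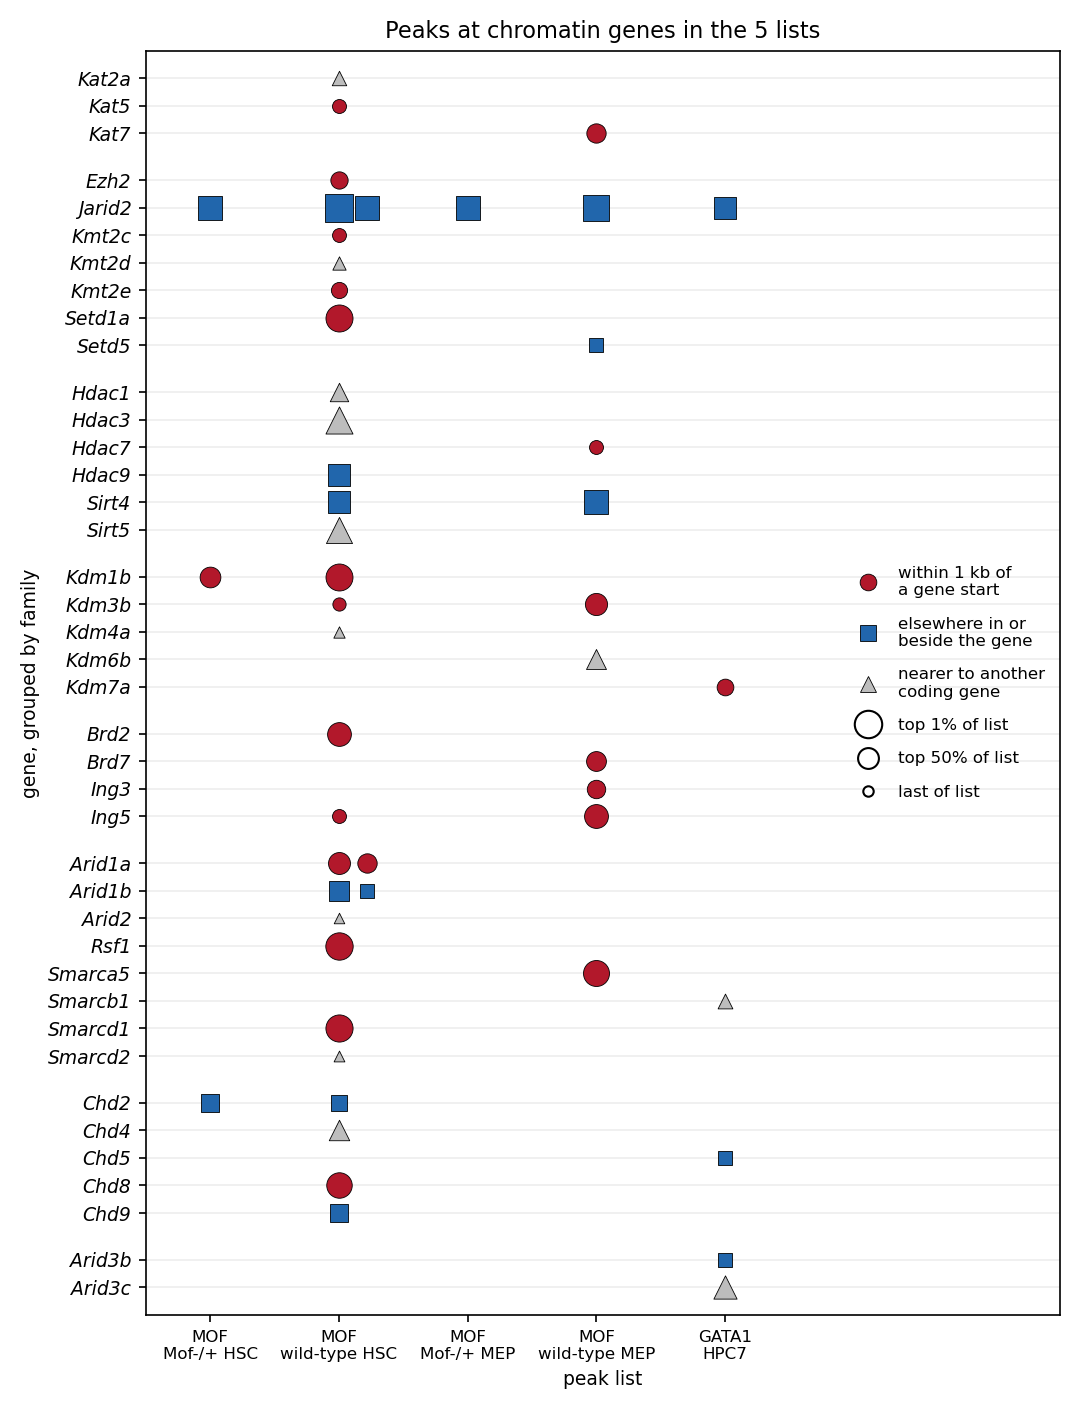
Peaks at the 40 members with a peak in any list, one row per gene and one column per list. Red circles lie within 1 kb of a gene start, blue squares elsewhere in or beside the gene, and grey triangles nearer to another protein-coding gene. Larger symbols rank higher in their own list (by width for GATA1). The Jarid2 row is filled in all 5 columns, while most other rows hold a symbol in a single column.

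The counts by family are to be read against 9.42% of all protein-coding genes for wild-type HSC and 4.01% for wild-type MEP. In HSC the intervals of the acetyltransferase (8.22 to 64.1%), demethylase (5.84 to 39.2%) and reader genes (4.70 to 44.8%) include that background. In MEP the intervals of all families with a peak except the readers (8.89 to 53.2%) include it.

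Of 7 acetyltransferase genes, 2 had a peak in wild-type HSC and 1 had one in wild-type MEP, both with intervals that include the background. Kat5, which encodes TIP60 of the NuA4 complex, had a weak summit in HSC (chromosome 19, position 5610051, −log10 value 2.93), 43 bp downstream of one of its annotated starts. It had no MEP peak. Kat7, which encodes HBO1, an acetyltransferase of the same MYST family as MOF, had a summit in MEP (chromosome 11, 95310103, rank 533 of 898), 143 bp downstream of its start, and no HSC peak within 5 kb. The Kat2a count in HSC rests on a summit inside the neighbour Dhx58 (chromosome 11, 100702741, value 3.07). Kat2b, Kat6a, Kat6b and Kat14 had no peak in any list.

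Methyltransferase and SET-domain genes, counting Jarid2, had a peak for 6 of 19 in wild-type HSC and for 2 of 19 in wild-type MEP. The strongest promoter peak among them was at Setd1a, which encodes a COMPASS-type methyltransferase of histone H3. Its HSC summit (chromosome 7, 127777214) had a value of 13.0 and ranked 82 of 1876. Ezh2, the catalytic subunit of Polycomb repressive complex PRC2, had an HSC summit of value 4.03 that lay 243 bp upstream of its start (chromosome 6, 47595273). Kmt2c and Kmt2e, of the MLL family, had HSC summits of value 2.86 and 3.63 (chromosome 5, 25499347 and 23433234). The Kmt2c summit lay 564 bp from a start, and the Kmt2e summit 198 bp from an end of that gene, whose strand is not listed. None of these 4 genes had a peak in MEP. The Kmt2d summit in HSC (chromosome 15, 98831520, value 2.64) lay 12 bp upstream of the start of Prkag1, which encodes a subunit of AMP-activated kinase. That position is also 149 bp from the end of Kmt2d opposite its start. Setd5 counted in MEP alone. Its summit (chromosome 6, 113077156, value 3.15) was 27.8 kb from its listed start, 106 bp outside the annotated boundary of Setd5 on its start side and 88 bp from an end of the non-coding gene Gt(ROSA)26Sor.

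Jarid2, which encodes an accessory subunit of PRC2 that helps recruit it to DNA, was the only member with a peak in all 5 lists. The site lies inside the gene on chromosome 13, about 138 kb from the nearest listed start. In Mof -/+ HSC the interval ran from 44869592 to 44869828 with a −log10 q of 18.4 and a fold enrichment of 4.21, rank 105 of 338. In wild-type HSC the summit at 44869773 had a value of 24.8 and ranked 10 of 1876. In Mof -/+ MEP the interval from 44869598 to 44869762 had a −log10 q of 17.3 and a fold enrichment of 11.3, rank 16 of 64. In wild-type MEP the summit at 44869837 had a value of 15.9 and ranked 116 of 898. The GATA1 interval in HPC7, from 44869588 to 44869931, covers the same place. It was thus called with both antibodies, in sorted cells and in the cell line. Such recurrence is not particular to Jarid2. Regions found in 4 or 5 lists held 30 of the 477 GATA1 intervals, 89 of the 338 peaks of Mof -/+ HSC and 29 of the 64 of Mof -/+ MEP. A further wild-type HSC summit, 2466 bp from a start of Jarid2 (44733737, value 6.89), was in no other list.

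The DNA methyltransferase genes Dnmt1, Dnmt3a, Dnmt3b and Dnmt3l and the genes Tet1, Tet2 and Tet3, whose products oxidise methylated cytosine, had no peak in any of the 5 lists. With 4 and 3 genes, a share of up to 49.0% and 56.1% lies within the 95% Wilson interval for HSC. Both limits are above the share over all members.

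Deacetylase and sirtuin genes had a peak for 5 of 18 in wild-type HSC and for 2 of 18 in wild-type MEP, but few of these lay at a listed start of their own. In HSC 0 of the 5 did, although the Sirt4 summit was 681 bp from the boundary of that gene on its start side. The strongest, counted for Hdac3, the deacetylase of the NCoR corepressor complex (chromosome 18, 37935563, value 13.5), lay 59 bp from an end of Diaph1. The summit counted for Hdac1 (chromosome 4, 129513609, value 4.38) was 28 bp inside the start of Marcksl1. The one counted for Sirt5, a mitochondrial deacylase (chromosome 13, 43398418, value 9.71), was 42 bp inside the start of Nol7, a nucleolar protein gene. Hdac9, a class IIa deacetylase gene, had an HSC summit deep in its body, 105 kb from a start (chromosome 12, 34812021, value 5.38).

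Sirt4, another mitochondrial sirtuin gene, counted in both wild-type lists, but at different positions. The HSC summit (chromosome 5, 115489583, value 5.68) was 16 bp from an end of the small nuclear RNA gene Gm24265. The MEP summit (115490383, value 9.08) was 11 bp from an end of a second one, Gm24407. They lay 681 and 119 bp from the boundary of Sirt4 on its start side, and 5286 and 6086 bp from its listed start. The summits were 800 bp apart, and the extended intervals did not overlap. Hdac7, a class IIa deacetylase gene, had a MEP summit 312 bp upstream of its start (chromosome 15, 97844814, value 3.23). Its nearest HSC summit lay 5019 bp from the gene, the member closest outside the limit in that list, with a value of 3.16. The farthest HSC summit still counted was that of Sirt5, at 3215 bp. In MEP the corresponding pair was Kdm6b inside, at 2626 bp and value 5.22, and Arid3a outside, at 5059 bp and value 7.22.

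Demethylase genes had a peak for 3 of 18 in wild-type HSC and for 2 of 18 in wild-type MEP, with intervals that include the background in both. Kdm1b, which encodes the flavin-dependent demethylase LSD2, had one of the stronger HSC summits (chromosome 13, 47043333, value 12.9, rank 89 of 1876), 166 bp upstream of its start. It shares this promoter with Tpmt, whose start lies on the opposite strand, 116 bp from the summit. Kdm3b, a demethylase of histone H3, had summits at the same end of the gene in both wild-type lists, 89 bp apart (chromosome 18, 34777052 in HSC with a value of 2.56 and 34776963 in MEP with 6.22). The HSC summit counted for Kdm4a (value 1.84) was 13 bp upstream of the start of St3gal3, and the MEP summit counted for Kdm6b, which encodes JMJD3, was 91 bp from an end of Naa38.

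Reader genes carried peaks only at their own starts in the wild-type lists, 2 of 12 in HSC and 3 of 12 in MEP. Brd2, a BET family gene, had an HSC summit 262 bp downstream of its start and 55 bp from an end of the histocompatibility gene H2-DMa (chromosome 17, 34119638, value 6.98). Ing5, whose product is a subunit of the HBO1 and MOZ acetyltransferase complexes, had a summit in both lists, shown above for HSC. Its HSC summit was 128 bp upstream of the start (93803837, value 2.88) and its MEP summit 53 bp downstream (93804018, value 7.51), 181 bp apart. Ing3, a NuA4 subunit gene, and Brd7, a PBAF subunit gene, had MEP summits of value 4.81 and 5.17, 250 bp downstream and 835 bp upstream of a start. Neither had an HSC peak.

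Among remodeller genes, a peak was counted for 10 of 26 in HSC (38.5%, 22.4 to 57.5), against a background of 9.42%. In MEP it was counted for 1 of 26 (3.85%, 0.682 to 18.9), near the background of 4.01%. In comparison, writers had 8 of 30 in HSC and 3 of 30 in MEP, and erasers 8 of 39 and 4 of 39. With the HSC list shortened to 898 peaks, an alternative added after these counts were seen, 4 remodeller genes were left in HSC, where 4.67% of all protein-coding genes had a peak, against 1 in MEP. Those 4, Arid1a, Chd8, Rsf1 and Smarcd1, all had a summit within 1 kb of a start. For Rsf1, which has no listed strand, either end of the gene was taken as a possible start. The difference between the lists cannot be told apart from list length.

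Among SWI/SNF and ISWI genes, 6 of 17 had a peak in wild-type HSC. Rsf1, the partner of the ISWI motor SNF2H in the RSF complex, had the strongest of them (chromosome 7, 97579719, value 17.7, rank 30 of 1876). That summit lay 151 bp from the end of Rsf1 that faces Aamdc, 222 bp upstream of the Aamdc start. Smarcd1, which encodes the BAF subunit BAF60A, followed with a value of 14.4 (chromosome 15, 99702207, rank 63). Arid1a, the BAF subunit gene also known as BAF250A, had 2 summits, each upstream of a separate annotated start, at 184 bp (value 5.80) and 326 bp (value 4.70). Arid1b had 2 summits inside its body, 195 and 333 kb from a start, with values of 4.85 and 2.67. The summits counted for Arid2 and Smarcd2 (ranks 1867 and 1852 of 1876) were among the weakest in the list and nearer to Gm38469 and Tcam1. The Smarcd2 summit was also 34 bp outside the boundary of Smarcd2 on its start side, and 5400 bp from its listed start. None of these 6 had a peak in MEP. The only MEP gene of this family was Smarca5, which encodes SNF2H itself (chromosome 8, 80739633, value 15.9, rank 116 of 898), and it had no peak in HSC.

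CHD genes had a peak for 4 of 9 in wild-type HSC and for 0 of 9 in wild-type MEP. Chd8 had a summit 172 bp upstream of a start (chromosome 14, 52257932, value 8.55). Chd9 had one inside its body, 47.7 kb from a start (value 4.01). The summit counted for Chd4, the motor of the NuRD complex, was 72 bp upstream of the start of Nop2 (chromosome 6, 125131811, value 5.09). Chd2 had a summit inside the gene, 3815 bp from an end of it and 1867 bp from an end of the non-coding gene Chaserr (chromosome 7, 73537931, value 3.82).

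**Figure D3:**
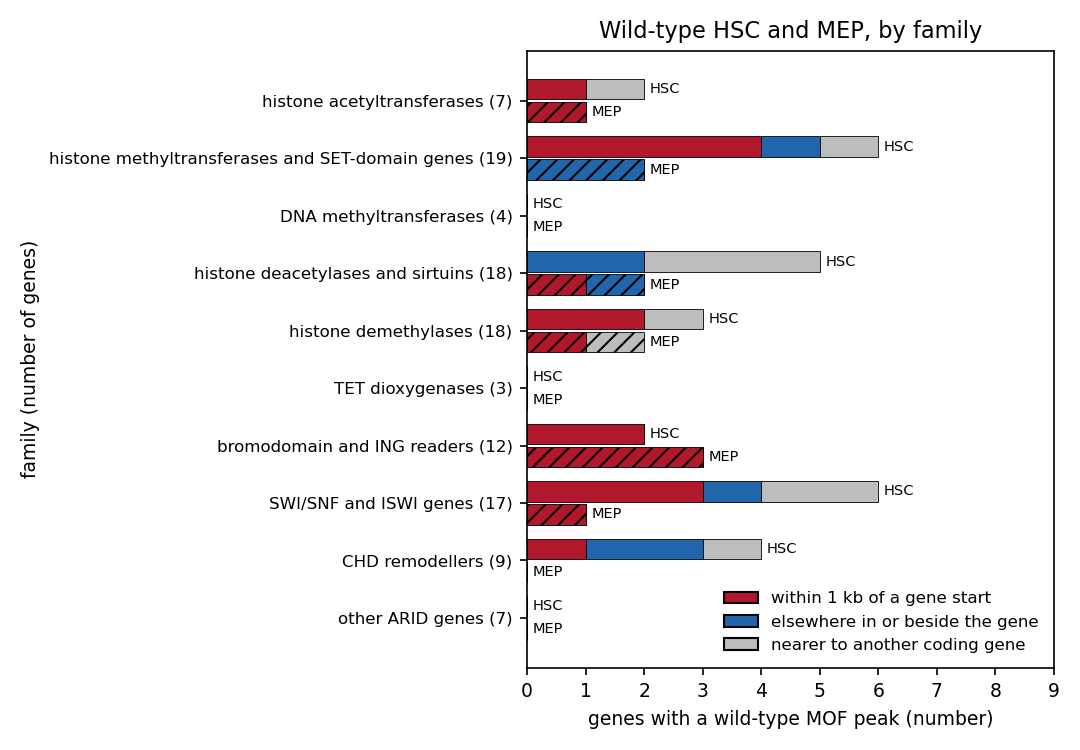
Number of members with a wild-type MOF peak in HSC (plain bars, upper) and MEP (hatched bars, lower) by family, with the size of each family in parentheses. Colours give where the peak lies. HSC bars are longer in most families, the readers have 2 in HSC and 3 in MEP, and the deacetylase and sirtuin bar in HSC holds no gene with a peak at a listed start of its own.

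By position, the 28 members of wild-type HSC fell into 13 with a summit within 1 kb of a start, 6 with one elsewhere in or beside the gene and 9 whose peak was nearer to another protein-coding gene. In wild-type MEP the numbers were 7, 3 and 1 of 11. Among all protein-coding genes with a peak, 1369 of 2062 in HSC and 494 of 878 in MEP had one within 1 kb of a start. In HSC members thus had a peak at a start less often than genes at large, while in MEP they did not. With the boundary of each gene on its start side added, 15 members and 1408 protein-coding genes had an HSC summit at a start. No intervals were made for these shares, so no trait of members can be read from them. Of 11 HSC summits at starts with a listed strand, 9 were upstream, with a median of 172 bp upstream and a range from 564 bp upstream to 262 bp downstream. In MEP 3 of 6 were upstream, from 835 bp upstream to 250 bp downstream. The same count was not made over all protein-coding genes, and the summits are few. No preference of members and no difference between the lists can be read from them. Several of the starts at these summits face a second gene. Other starts lay within 1 kb of the HSC summits at Kdm1b (Tpmt), Rsf1 (Aamdc), Ezh2 (F830010H11Rik), Kmt2c (4831440E17Rik) and Kmt2e (5031425E22Rik), and of the MEP summit at Kat7 (Gm11520). A summit does not say which of the paired starts it belongs to.

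**Figure D4:**
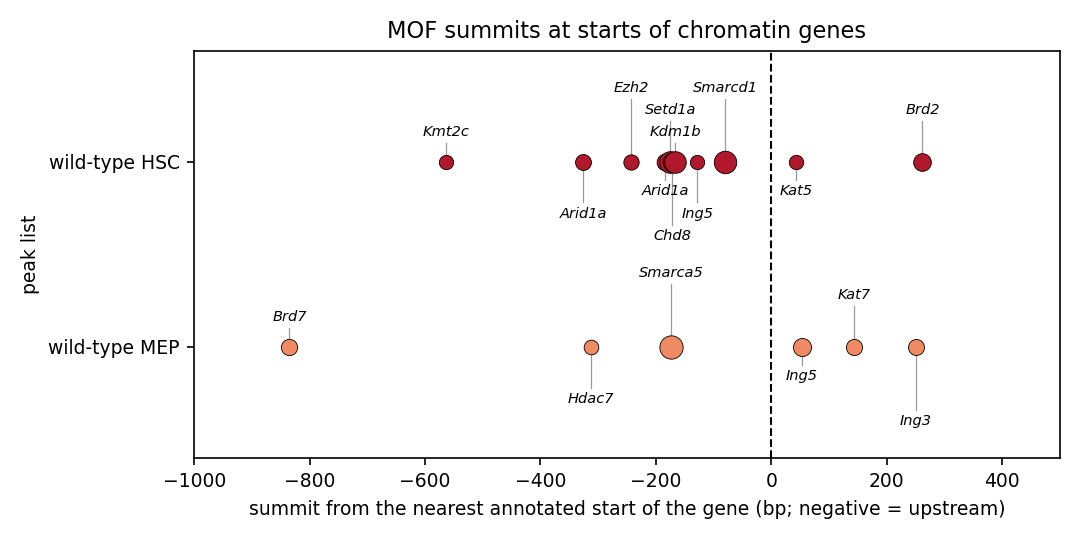
Distance of MOF summits from the nearest annotated start of the member, for wild-type HSC (upper row) and wild-type MEP (lower row), negative values being upstream. Larger points have a higher −log10 value. Most of the 11 HSC summits lie between 326 and 80 bp upstream, and the 6 MEP summits lie on both sides of the start. These distances were not counted over all protein-coding genes.

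The promoter windows of members with a wild-type HSC peak at the start were GC-rich. Each window is at the listed start farthest upstream, which need not be the start nearest to the summit. In the 300-base promoter windows, G and C made up a median of 71.2% in the 10 such members with a sequence and 59.7% in the 6 with a MEP peak. The median was 61.5% in the 76 members with neither and 56.3% over 17492 protein-coding genes. The ratio of observed to expected CpG had medians of 0.842, 0.936, 0.823 and 0.577 in the same order. The ranges overlapped, from 57.0 to 88.0% GC for HSC and 36.7 to 82.7% for members with neither.

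Few chromatin genes had a peak in the heterozygous lists. In Mof -/+ HSC 3 of 114 did (2.63%, interval 0.899 to 7.45, with a background of 0.768%), and in Mof -/+ MEP 1 of 114 (0.877%, 0.155 to 4.80, against 0.123%). All 3 member peaks of Mof -/+ HSC overlapped a wild-type HSC peak (43.9 to 100%). Over the whole list 88 of 338 did (26.0%, 21.6 to 31.0), but only 149 of the 338 lay inside or within 5 kb of a protein-coding gene. The 2 shares are thus of unlike sets. The 3 member peaks were at Jarid2, Kdm1b and Chd2. The Kdm1b interval ran from 47043287 to 47043532 on chromosome 13 with a −log10 q of 7.66 and a fold enrichment of 7.28, against a value of 12.9 in wild-type HSC. This was the only Mof -/+ HSC peak at a member's start (0.877%, against 0.329%), and Mof -/+ MEP had 0 (against 0.00914%). The Chd2 interval, from 73537711 to 73537982 on chromosome 7, had a −log10 q of 5.45 and a fold enrichment of 6.31, against a value of 3.82 in wild-type HSC. Values of separate lists are set side by side and do not measure a change. Of the wild-type HSC peaks at members, 3 of 31 overlapped a Mof -/+ HSC peak (9.68%, 3.35 to 24.9), against 91 of 1876 over the whole list (4.85%). The heterozygous lists were shorter as a whole, so the share of members cannot be told apart from list length. In Mof -/+ MEP the only member was Jarid2, at the site shared by all lists. Of the wild-type MEP peaks at members, 1 of 11 overlapped a Mof -/+ MEP peak (9.09%, 1.62 to 37.7), against 27 of 898 over the whole list (3.01%). Regions found in 4 or 5 lists held 89 of the 338 peaks of Mof -/+ HSC and 29 of the 64 of Mof -/+ MEP, against 44 of 1876 in wild-type HSC and 79 of 898 in wild-type MEP.

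GATA1, the erythroid master factor, had intervals at 6 of 114 members in HPC7 (5.26%, 2.43 to 11.0, against 1.29% of all protein-coding genes). Only Kdm7a, a demethylase gene, had one near its start, 327 bp upstream (chromosome 6, 39207011 to 39207190; 0.877% of members, against 0.119%). The intervals at Chd5 and Arid3b, 33.3 and 14.8 kb from a start, were 149 bp wide, the smallest width in that list. So was the one counted for Smarcb1, which lay nearer to Mmp11. The interval counted for Arid3c (chromosome 4, 41723046 to 41723440) was 80 bp from an end of Dctn3. Of the 6 intervals at members, the 1 at Jarid2 overlapped a MOF peak of wild-type HSC and of wild-type MEP, against 26 (5.45%) and 61 (12.8%) of all 477 intervals.

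In all, 40 of 114 members had a peak in at least 1 list (35.1%, 26.9 to 44.2, against 13.1%), and 74 had none. Among the 74 were the H3 methyltransferase gene Kmt2a, the BAF motor genes Smarca4 and Smarca2, the demethylase gene Kdm1a and the Polycomb gene Ezh1.

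For comparison, 94 further genes for chromatin proteins outside the symbol rule, some of them partners of the members, were counted in the same way. A peak was found for 17 in wild-type HSC (18.1%, 11.6 to 27.1) and for 6 in wild-type MEP (6.38%, 2.96 to 13.2), against 9.42% and 4.01% of all protein-coding genes. The MEP interval includes the background. Both heterozygous lists had 0 (backgrounds of 0.768% and 0.123%), and GATA1 had 3 (background of 1.29%). By family, PRC1 and other readers had 3 of 24 in HSC and 1 of 24 in MEP, methyltransferases with their PRC2 and COMPASS partners 6 and 2 of 24, and other remodellers 5 and 2 of 20. Corepressors and other erasers had 2 of 15 in HSC and 0 in MEP, and other acetyltransferases with their partners 1 of 11 in each. Both wild-type lists held Brpf1, a scaffold of MYST acetyltransferase complexes, with values of 11.3 in HSC and 14.3 in MEP. They also shared Ep400, the remodelling motor of the TIP60 complex, with 10.5 and 10.9, and the arginine methyltransferase gene Carm1, with 9.91 and 8.17. Eed, the PRC2 partner of Ezh2, had a summit in HSC alone, 143 bp from a start with a value of 5.94.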

How the data were processed

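Peak lists of 5 of the 12 samples were used. The other 7 (6 inputs and 1 H4K16ac library) were not analysed here. The submitters' processing notes name the build mm10 and the tools MACS2, deepTools and Bowtie2 (2.3.0.1). Their settings, duplicate filters and the use of inputs are not given in the sources used. The deposited wild-type lists hold 1 bp summits, each with a −log10 value that no header names. Its minimum lay just above 1.3, so it was read as −log10 q. The deposited heterozygous lists hold intervals with the authors' fold enrichment (a ratio), −log10 p, −log10 q and a whole-number score, which was not used. The deposited GATA1 list has start and end only, so width gave its ranks. The authors made all values of single peaks, which rank peaks within a list only.

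Wild-type summits were extended by 150 bp on each side for overlaps of at least 1 bp. Genes came from RefSeq (GRCm38.p6), and starts with strand from its promoter table, which lists 250 bases before to 50 after each start. Counting was tested on planted peaks. Promoter windows, 1 per gene at the start farthest upstream, were searched on both strands. Shares carry 95% Wilson intervals. No test was run, since each group has 1 library.

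Members, families and lists were chosen with earlier results of these data known. Genes named with values were every member with a peak in wild-type MEP, a heterozygous list or the GATA1 list, every member with a wild-type HSC peak at its start, and the 10 with the highest wild-type HSC peak. Other members with a peak are named more briefly. Analyses used Python 3.11.15, pandas 2.3.3, NumPy 2.4.6 and SciPy 1.17.1.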

Additional observations from a re-analysis of the deposited data

How the results depend on the processing

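No paired analysis was possible because each group holds 1 library. Of 61 alternative counts, 45 stayed within 1.5 times the reported one. In wild-type HSC the number of members with a peak changed from 28 to 18 with the nearest protein-coding gene only, to 12 with peaks above the median score, and to 12 with as many peaks as in MEP. The first follows from peaks shared by neighbouring genes, the others from fewer peaks. The shares of members were 15.8%, 10.5% and 10.5%, against 7.15%, 4.86% and 4.67% of all protein-coding genes. In wild-type MEP the number of members changed from 11 to 5 above the median score (4.39%, against 1.81%). At starts, peaks above the median score left 7 members in HSC (6.14%, against 3.16%) and 3 in MEP (2.63%, against 0.969%). The shortened HSC list left 7 (6.14%, against 3.03%). Members in both wild-type lists were 8 with a window of 20 kb (7.02%, against 3.24%). They were 2 above the median score (1.75%, against 0.567%) and 2 with the shortened HSC list (1.75%, against 0.955%). Above the median score 1 member peak of HSC overlapped a MEP peak, in place of 3 (7.69%, against 12.2% of all HSC peaks). In Mof -/+ HSC 1 member was left above the median score (0.877%, against 0.206%). In Mof -/+ MEP 0 were left within 5 kb of gene ends alone or without regions found in 4 or 5 lists, both times by the loss of Jarid2. The backgrounds there were 0.0366% and 0.0822%. For GATA1 3 members were left within 5 kb of gene ends (2.63%, against 0.603%) and 2 above the median width (1.75%, against 0.694%). In all 15 alternatives for the wild-type HSC and MEP counts, the share of members stayed above that of all protein-coding genes. Of all 61, 6 were at or below the value over all genes or peaks: the 4 for the overlap of HSC with MEP peaks and the 2 counts of 0 in Mof -/+ MEP.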

Other observations

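The same promoter windows of the members, at the listed start farthest upstream, were also searched for motifs of general and erythroid factors, with no test. Of the 15 members with a wild-type peak at the start and a sequence, 5 held the ETS motif CCGGAAG, against 12 of the 76 members with neither peak and 11.9% of all protein-coding promoters. The NRF1 motif GCGCATG was in 3 of 15, against 6 of 76 and 4.88%. The GC box GGGCGG was in 9 of 15, against 55 of 76 and 46.3%, and the CCAAT box (ATTGG) in 6 of 15, against 29 of 76 and 39.2%. The YY1 motif ATGGCGG was in 1 of 15, against 2 of 76 and 5.44%, and the E box CACGTG in 1 of 15, against 3 of 76 and 7.91%. A GATA motif (AGATAA or TGATAA) was in 1 of 15, against 8 of 76 and 16.2%. A match is only a run of letters and shows no binding. GC content differs between these groups and moves with several of the motifs, and its part in the counts was not tested.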
